A study of Mus musculus with 12 samples.

Results

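ERV1 elements are endogenous retroviruses of class I, the relatives of gammaretroviruses such as murine leukaemia virus that are fixed in the mouse genome. The rows described here are the repeat rows of class LTR/ERV1 for which all 12 libraries of the study gave a methylation level, and there were 1000 of them among 1812 ERV1 rows listed in at least 1 library (55.2%). All repeats with a level in the 12 libraries together made up 34707 rows, and all features made up 133311. The assay was reduced representation bisulfite sequencing (RRBS), in which DNA is cut with MspI to favour CpG-rich stretches and bisulfite then converts unmethylated cytosines. A level is the share of CG calls in a row that were methylated, and it is printed here as a percentage. Each row carries the name of a repeat subfamily and an interval on that subfamily's consensus sequence. The rows carry no genome position, so it is not known whether a row holds 1 genomic copy or several copies with the same interval.

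The study compared 6 groups of 2 libraries, all of strain C57BL6. Female embryonic stem cells (ESCs) came from fertilised embryos, and parthenogenetic embryonic stem cells (pESCs) came from activated oocytes without a paternal genome. According to the study's methods both kinds of stem cell line carried an Actin-GFP transgene. Primordial germ cells (PGCs), which give rise to the gametes, were isolated on embryonic days 9.5 (E9.5 PGCs) and 12.5 (E12.5 PGCs), according to those methods from female embryos and by sorting for CD61 and SSEA1 or for SSEA1 alone. PGC-like cells (PGCLCs) were induced in culture from ESCs (ESC-PGCLCs) or pESCs (pESC-PGCLCs) through 2 days as epiblast-like cells and 4 further days with BMP4, SCF, EGF and LIF, and were sorted for CD61 and SSEA1. The study calls the 2 libraries of a group biological replicates. How many lines, clones or embryos stand behind them is not given in the sources used here, so the p-values below measure only the spread between these libraries.

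A complete endogenous retrovirus has an internal sequence with the viral genes between a pair of long terminal repeats (LTRs), which hold the promoter and enhancer. Recombination between the LTRs often leaves an LTR alone. In mammals DNA methylation and repressive histone marks keep such elements silent, and PGCs lose most of their DNA methylation while they migrate and settle in the gonad. Among ERV1 elements, MuLV is the group of murine leukaemia viruses, VL30 is a group of defective elements packaged by those viruses, GLN elements are named for a glutamine tRNA primer, and MuRRS elements are related to MuLV and are flanked by LTR-IS repeats. MURVY elements are known for their many copies on the Y chromosome.

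The 1000 rows fell into 87 subfamilies, of which 19 had a single row. By name, 488 rows in 15 subfamilies were internal sequences and 512 rows in 72 subfamilies were LTRs. The median interval was 1848 consensus positions for internal rows and 376.5 for LTR rows, and intervals ran from 33 to 7778 positions. MLTR14 was the largest subfamily with 78 rows, followed by MuRRS-int with 74, MMERGLN-int with 66 and RLTR6-int with 59.

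The study's account and the levels disagreed for the sex of the germ cell libraries. The 12 files together held 13 features of 6 single-copy Y-linked genes (Kdm5d, Uty, Ddx3y, Eif2s3y, Usp9y and Uba1y). The 4 ESC and pESC libraries listed 0 of these features, while each of the 8 PGC and PGCLC libraries listed between 10 and 13 of them and all 6 genes. Among the latter were the libraries labelled ESC-PGCLC and pESC-PGCLC, whose source lines the study describes as female and parthenogenetic. Levels for these genes mean that the 8 libraries held reads assigned to the Y chromosome, which female and parthenogenetic cells lack. Where these reads came from was not tested, and which cells the libraries hold cannot be told from the levels. All groups with PGCs or PGCLCs are therefore named below as they are labelled, and origin and induction below refer to the labels. Every comparison but pESCs with ESCs rests on these libraries and could not be made without them. The rows of MURVY-int and MURVY-LTR were listed alike in both kinds of library, with 32 to 40 internal rows and 11 to 15 LTR rows in each. Counts without the 41 MURVY rows are given for the totals of called rows in comparisons with PGCs and on induction, and not for other row counts. That alternative was chosen after the Y-linked features were seen. The ESC replicates also stood apart from each other, with replicate 1 above replicate 2 in 871 of 1000 ERV1 rows and a median gap of 9.0 points, against median gaps of 1.69 to 3.86 points in the other groups. The number of ERV1 rows listed ran from 1170 to 1665 per library. The read depth behind each level is unknown.

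ERV1 rows were most methylated in E9.5 PGCs and least in E12.5 PGCs. The median over the 1000 rows was 73.2% and 73.0% in the 2 E9.5 PGC libraries and 48.0% and 48.3% in the 2 E12.5 PGC libraries. ESC-PGCLCs lay between these stages with medians of 60.3% and 60.7%, and pESC-PGCLCs lay between them with 56.3% and 55.8%. The ESC libraries had medians of 60.6% and 48.8% and the pESC libraries 55.2% and 52.1%, so the stem cell groups overlapped each other and the ESC group spanned the range from E12.5 PGCs to PGCLCs. As group values (mean and SD, n = 2 libraries) the PGC medians were 73.1% ± 0.112 at the earlier and 48.1% ± 0.221 at the later stage. PGCLC medians were 60.5% ± 0.226 for the ESC origin and 56.0% ± 0.339 for the pESC origin, and stem cell medians 54.7% ± 8.39 for ESCs and 53.7% ± 2.15 for pESCs. By group mean, E9.5 PGCs held the highest of the 6 levels in 903 of 1000 rows, E12.5 PGCs held the lowest in 613, and ESCs or pESCs held the lowest in 328.

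The median over internal rows lay above the median over LTR rows in every library, and the gap was widest in stem cells. The 2 kinds of row come from different subfamilies. The medians of internal and LTR rows were 62.7% and 46.9% in ESCs and 62.0% and 46.6% in pESCs, a gap of 15.8 and 15.4 points. At E9.5 the corresponding medians were 75.6% and 68.1%, and at E12.5 they were 52.0% and 43.5%. For PGCLCs they were 64.7% and 56.2% with the ESC origin and 61.3% and 51.0% with the pESC origin, and the gaps in germ cells were 7.52 to 10.3 points. Levels were also spread more widely in stem cells, where 127 to 150 rows lay under 20% in each library. In E9.5 PGCs only 18 and 22 rows did so, and 274 and 284 rows lay over 80%. In the E12.5 PGC libraries 2 rows and 1 row were over 80%.

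**Figure D1:**
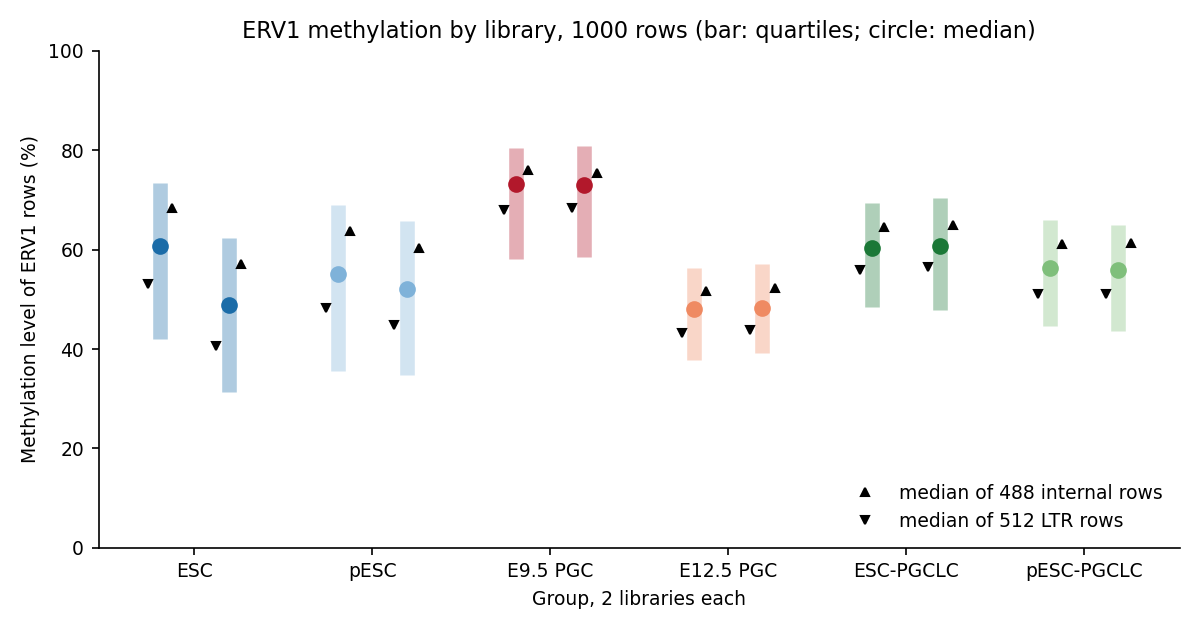
Methylation level (%) of the 1000 ERV1 rows in each of the 12 libraries, by group, with the bar from the lower to the upper quartile, a circle at the median, and triangles at the medians of the 488 internal and 512 LTR rows. The 2 E9.5 PGC libraries lie highest at 73.2% and 73.0%, the 2 E12.5 PGC libraries lie at 48.0% and 48.3%, the 2 ESC libraries differ from each other, and internal rows lie above LTR rows in every library.

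Grouped by interval length, the longest internal rows had the highest medians. The single row with the highest mean over the 12 libraries was a short one, MuRRS4-int at 1 to 114. The 229 internal rows with intervals over 2000 positions had a median of 69.0% ± 5.72 in ESCs, 78.4% ± 0.267 in E9.5 PGCs and 56.1% ± 0.773 in E12.5 PGCs (n = 2). The 65 internal rows of 201 to 500 positions had 49.3% ± 8.06, 71.6% ± 0.400 and 44.8% ± 1.34 in the same groups. Across the 488 internal rows the Spearman correlation of interval length with level was 0.397 in ESCs and 0.268 in E9.5 PGCs, and across the 512 LTR rows it was 0.132 and 0.0893. These correlations run over rows of the same libraries, which share subfamilies and are not independent.

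Subfamilies differed far more in stem cells than in germ cells. Among the 30 subfamilies with at least 8 rows, which hold 848 of the rows, the group mean of the library medians ran from 18.9% in RLTR41 to 72.1% in RLTR6-int in ESCs, a range of 53.2 points. In E9.5 PGCs it ran from 49.1% in RLTR14_RN to 82.2% in RLTR1B, a range of 33.1 points, and in E12.5 PGCs from 27.4% in RLTR14_RN to 59.3% in RLTR6-int. Both E12.5 PGC libraries lay below both E9.5 PGC libraries in 30 of the 30 subfamilies. In 13 of them all 4 stem cell libraries lay above both E12.5 PGC libraries, and in 3 all 4 lay below both.

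**Figure D2:**
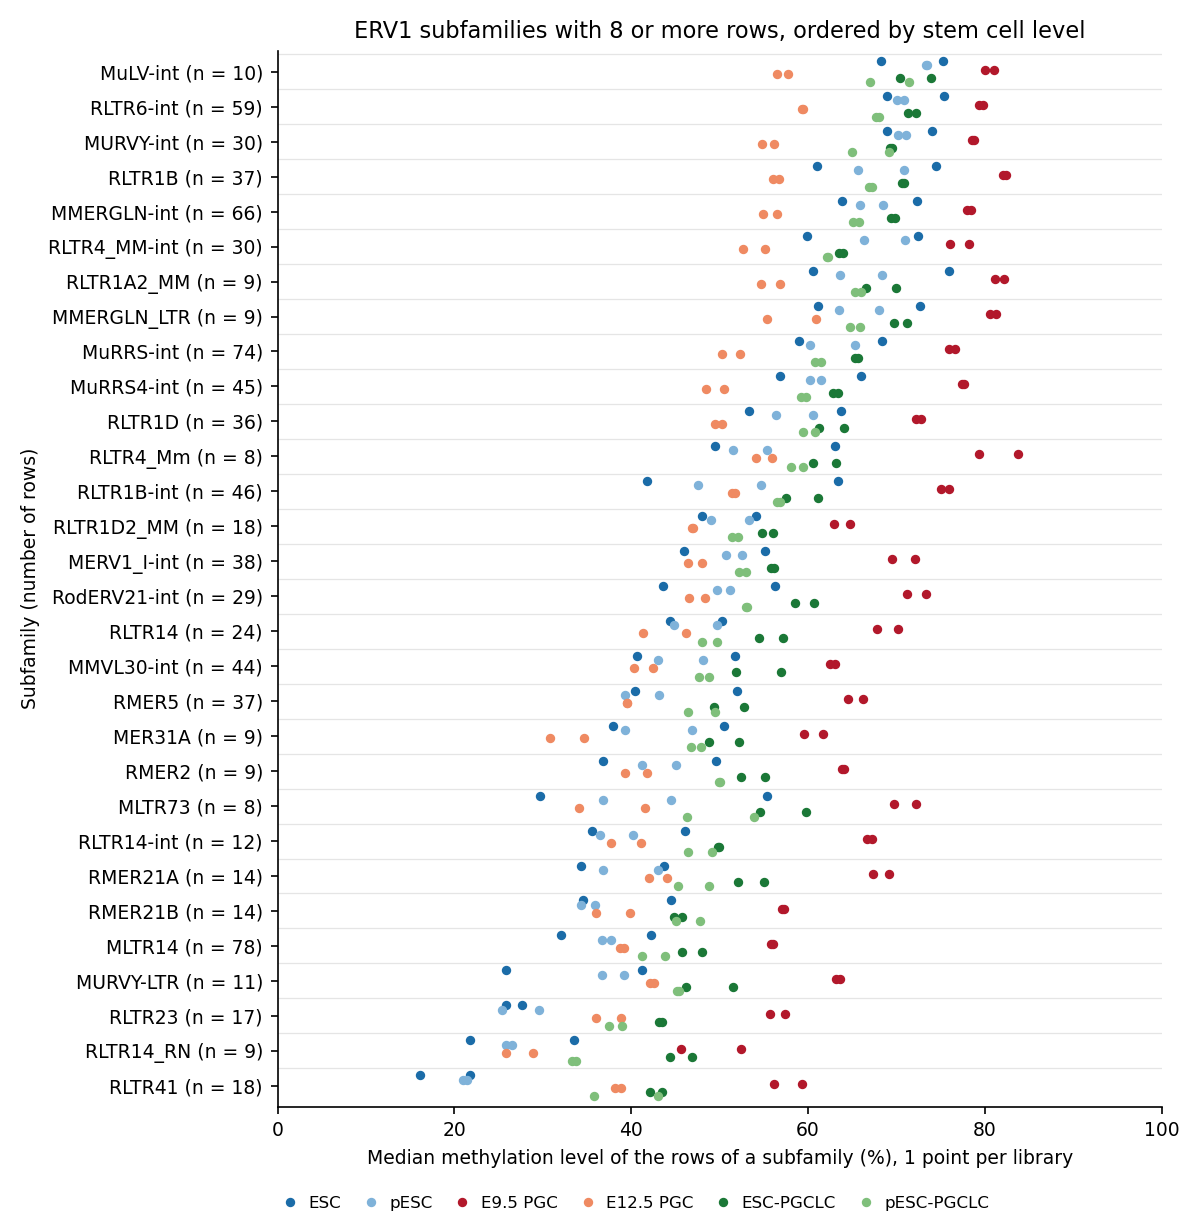
Median methylation level (%) of the rows of each ERV1 subfamily with at least 8 rows, with 1 point per library coloured by group and subfamilies ordered from the lowest stem cell level (bottom) to the highest (top). E9.5 PGC points lie to the right of E12.5 PGC points in 30 of 30 subfamilies, and the stem cell points run from the 16.1% of RLTR41 in ESC replicate 2 to the 75.9% of RLTR1A2_MM in ESC replicate 1.

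The internal sequences RLTR6-int, MMERGLN-int and MuLV-int were at the upper end of the subfamilies with at least 8 rows. RLTR6-int (59 rows) had medians of 75.4% and 68.9% in ESCs, 70.9% and 70.0% in pESCs, then 79.3% and 79.8% at E9.5 but 59.3% and 59.4% at E12.5. MMERGLN-int, the GLN internal sequence (66 rows), had 72.3% and 63.8% in ESCs, 78.4% and 78.0% at E9.5, and 54.9% and 56.5% at the later stage. MuLV-int (10 rows) had 75.2% and 68.2% in ESCs, 80% and 81.0% in earlier PGCs, and 57.7% and 56.5% in later ones. In each of these subfamilies the stem cell libraries lay between the PGC stages, above E12.5 PGCs and below E9.5 PGCs. MMVL30-int, the VL30 internal sequence (44 rows), was lower, with 51.7% and 40.7% in ESCs. It had 62.5% and 63.0% for E9.5 PGCs, and 42.5% and 40.3% for E12.5 PGCs. Among the other internal subfamilies with at least 8 rows, ESC group means ran from 40.8% in RLTR14-int to 71.4% in MURVY-int.

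Among the subfamilies with at least 8 rows, the lowest stem cell levels were in the LTR subfamilies RLTR41, RLTR14_RN and RLTR23. RLTR41 (18 rows) had medians of 21.8% and 16.1% in ESCs and 21.5% and 21.0% in pESCs, but 56.2% and 59.4% in the earlier PGCs and 38.8% and 38.1% in the later ones. RLTR23 (17 rows) had 27.7% and 25.8% in ESCs, 25.4% and 29.6% in pESCs, against 57.4% and 55.7% in the earlier PGCs and 36.0% and 38.8% in the later ones. In both subfamilies all 4 stem cell libraries lay below all 8 germ cell libraries. LTRs were not all low: RLTR1A2_MM (9 rows) had 75.9% and 60.6% in ESCs, and RLTR1B (37 rows) had 74.5% and 61.0% in ESCs, 82.3% and 82.1% at E9.5 but 56.0% and 56.7% at E12.5.

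In germ cells, ERV1 rows lost methylation between E9.5 and E12.5, and 0 rows were called as gaining it. Levels were compared row by row with limma on the log2 odds of the level, fitted across all features, and a row was called when its Benjamini-Hochberg adjusted p was under 0.05 and the means of its groups lay 10 or more percentage points apart. All 1000 rows were tested in every comparison. In E12.5 against E9.5 PGCs 867 rows were called, 0 higher and 867 lower (86.7%), where 49.6% of all 137202 features were called in either direction, 0.035% higher and 49.6% lower, and 84.9% of all repeats were called. Without the MURVY rows the count was 831 of 959. The median difference over the rows was -21.3 points, with -11.5 points over all features and -19.5 points over all repeats. In bulk cells a lower level in every cell and a smaller share of cells with methylated copies cannot be told apart.

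The loss was spread over the name groups. Of all features 49.6% were called lower, and of all repeats 84.8%. Of the 157 RLTR1 rows 143 were called lower, as were 124 of 140 MuRRS and LTR-IS rows. So were 98 of 114 VL30 rows (name stems RLTR6 and MMVL30), 69 of 75 GLN rows, 41 of 48 MuLV rows and 39 of 45 RLTR14 rows. The remaining groups had 175 of 201 rows without an assigned stem, 60 of 77 other RLTR rows and 62 of 74 RMER rows called lower. MER names had 46 of 56 and numbered LTR names 10 of 13. Internal rows were called in 440 of 488 cases (90.2%) and LTR rows in 427 of 512 (83.4%). The share of the E9.5 level that was kept at E12.5 had a median of 68.9% (quartiles 62.0% and 75.5%) over the 981 rows with at least 20% at E9.5, and it was 71.0% for internal and 67.0% for LTR rows. RLTR6-int kept a median of 77.2%, RLTR41 65.0% and MER31A (9 rows) 52.9%. On this relative scale all repeats kept 69.8%.

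The largest falls were in single LTR rows. The RLTR14 row at consensus positions 1 to 376 read 100% and 88.9% in the E9.5 libraries and 20% and 7.14% in the E12.5 libraries, a fall of 80.9 points with adjusted p = 0.00352 (limma, Benjamini-Hochberg). Its levels in ESCs were 0% and 75% and in pESCs 25.9% and 100%, the largest replicate gap of any row in pESCs, and its 2 PGC groups did not overlap. Levels of 0%, 20%, 75% and 100% can come from few CG calls, and the number of calls in this row is not given. The MLTR14 row at 50 to 320 went from 77.0% and 80.4% to 16.0% and 18.3%, a log2 odds difference of -4.06 (SE 0.206, adjusted p = 7.47e-05, limma). The MER89 row at 242 to 557 went from 80.3% and 78.9% to 20% and 20.5%, a log2 odds difference of -3.84 (SE 0.0963, adjusted p = 7.47e-05, limma). Both rows were already at 17.0% to 29.2% in the 4 stem cell libraries.

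In relative terms 3 rows kept the least. The MLTR14 row at 1 to 140 went from 34.8% and 34.4% to 2.38% and 4.35% and kept 9.73%. The RLTR14 row above kept 14.4%, and the LTR37B row at 340 to 468 went from 61.2% and 65.2% to 10.3% and 11.7% and kept 17.4%. At the other end, 7 of the 981 rows had a higher mean at E12.5. The MMERGLN-int row at 1 to 5715 rose from 48.0% and 49.0% to 56.0% and 58.9%, a difference of 8.98 points, which passed the adjusted p (0.00978, limma) but not the limit of 10 points. The RLTR1D2_MM row at 1 to 125 read 30.7% and 34.4% against 34.9% and 36.0%, with adjusted p = 0.291 (limma), and the RMER5 row at 12 to 472 read 52.3% and 16.7% against 50% and 58.3%, groups whose values overlap.

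PGCLCs of both origins stood below E9.5 PGCs and above E12.5 PGCs for most ERV1 rows. These comparisons share the PGC libraries and, at each origin, the PGCLC libraries, so their counts are not independent of each other. The mean of ESC-PGCLCs lay between the PGC stages in 868 rows, above both in 57 and below both in 75, and the mean of pESC-PGCLCs lay between them in 847 rows, above both in 30 and below both in 123. Against E9.5 PGCs, 453 rows were called for ESC-PGCLCs, 9 higher and 444 lower, where 29.8% of all features were called, 0.168% higher and 29.6% lower. For pESC-PGCLCs 681 rows were called, 5 higher and 676 lower, where 40.3% of all features were called, 0.127% higher and 40.2% lower. Of all repeats 41.4% and 62.7% were called, beside 45.3% and 68.1% of ERV1 rows. The median differences were -10.1 and -14.0 points, and -9.59 and -13.2 points over all repeats. Without the MURVY rows the counts were 443 and 659 of 959.

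Against E12.5 PGCs, 498 rows were called in ESC-PGCLCs, 488 higher and 10 lower, where 22.8% of all features were called (22.2% higher and 0.523% lower), with a median difference of 10.9 points. In pESC-PGCLCs 202 rows were called, 198 higher and 4 lower, where 7.1% of all features were called (6.81% higher and 0.287% lower), with a median difference of 6.86 points. Of all repeats 39.7% and 12.5% were called, beside 49.8% and 20.2% of ERV1 rows. Without the MURVY rows the counts were 473 and 193 of 959. The count for pESC-PGCLCs depended on each of its libraries: it was 0 without pESC-PGCLC replicate 1, 5 without replicate 2, 16 without E12.5 PGC replicate 1 and 45 without E12.5 PGC replicate 2, and 13 when all 12 libraries entered the fit. In ESC-PGCLCs the count was 403 to 433 on leaving out 1 library.

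The largest falls below E9.5 PGCs were in an LTR row and a MuLV internal row. The LTR row RLTR6_Mm at 1 to 586 had 77.2% and 80.7% in E9.5 PGCs but 20.5% and 23.6% in PGCLCs of the ESC origin and 19.0% and 20.9% in those of the pESC origin, with adjusted p = 0.000725 and 0.000258 (limma). E12.5 PGCs had 20% and 25%, so the PGCLC libraries lay at the level of the later stage, and the 4 stem cell libraries lay between 6.11% and 9.28%. The internal row RLTR4_MM-int at 1 to 2385, a MuLV sequence, had 89.1% and 90.8% at E9.5 but 53.1% and 66.7% at E12.5. ESC-PGCLCs had 35.1% and 31.6%, and pESC-PGCLCs had 38.4% and 40.2%, below both PGC stages, and the row was called lower against E12.5 PGCs too (adjusted p = 0.00790 and 0.0410, limma).

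Other named rows departed from the order of the medians. RMER21A at 1 to 873 read 57.9% and 49.0% in the earlier PGCs and 42.2% and 37.0% in the later ones, but 6.35% and 10% in ESC-PGCLCs, where it was called lower than either stage. Its levels in pESC-PGCLCs were 17.1% and 27.1%. MER34A at 57 to 313 read 9.78% and 12.3% in E12.5 PGCs. PGCLCs had 53.0% and 56.3% with the ESC origin and 42.4% and 45.8% with the pESC origin, beside the 51.5% and 47.4% of E9.5 PGCs. MLTR14 at 306 to 543 read 81.3% and 100% in ESC-PGCLCs and between 32.0% and 51.6% in the other 10 libraries. LTRIS4A at 1 to 413, an LTR-IS repeat, was called higher in PGCLCs of both origins than in E9.5 PGCs, with 76.6% and 66.2% for the ESC origin, 77.3% and 71.4% for the pESC origin and 41.8% and 59.1% in the PGCs, and the stem cell libraries read 65.8% to 76.5%.

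**Figure D3:**
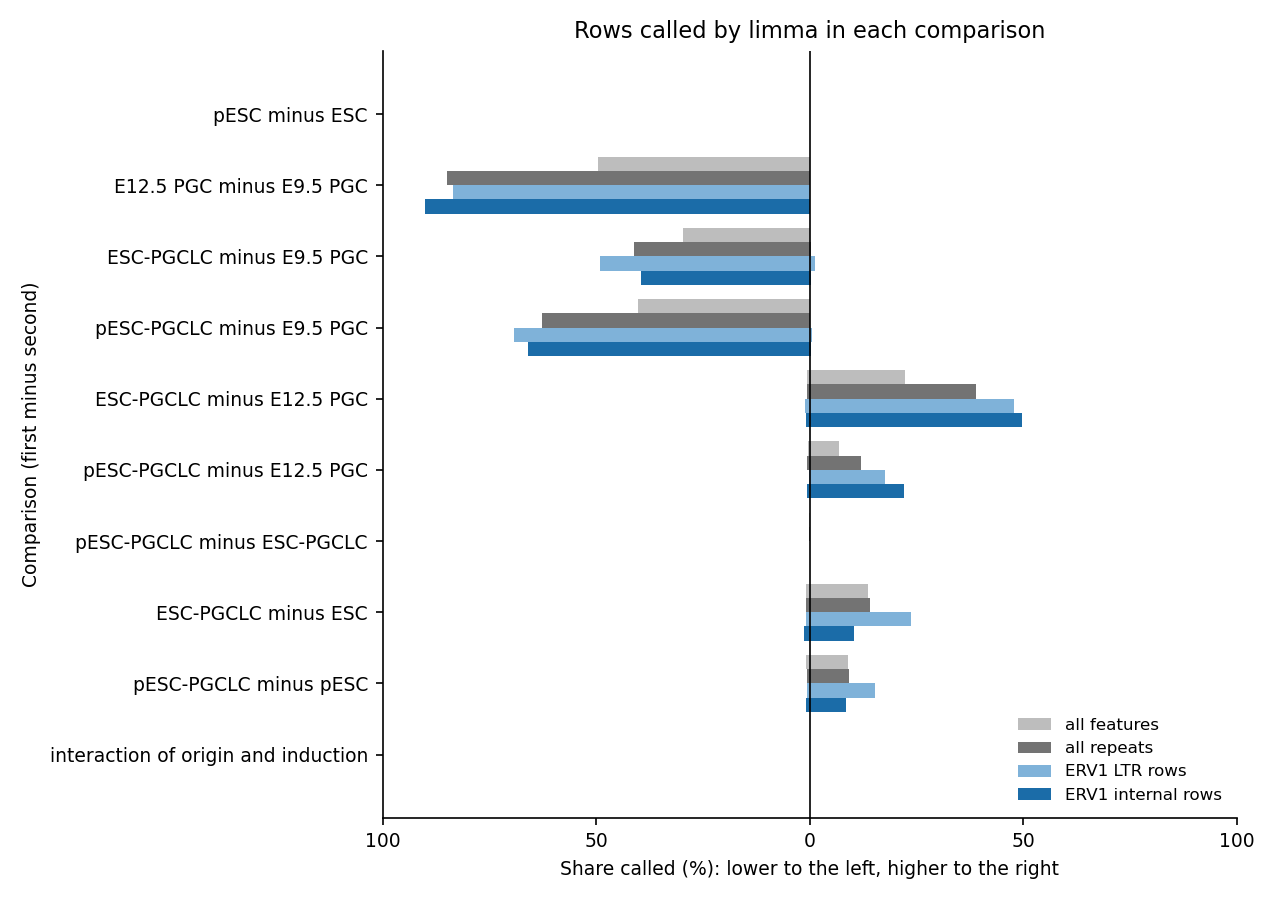
Share (%) of all features, all repeats, and ERV1 LTR and internal rows that limma called lower (left of 0) or higher (right of 0) in each comparison, first group minus second. In E12.5 against E9.5 PGCs 90.2% of internal and 83.4% of LTR rows were called lower beside 84.8% of all repeats, and in ESC-PGCLCs against ESCs 23.6% of LTR and 10.5% of internal rows were called higher.

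The parthenogenetic origin was compared with the fertilised origin before and after induction, and no ERV1 row was called in either case. For pESCs against ESCs 0 of 1000 rows and 0.0% of all 148012 features were called by limma, and 6 rows had an unadjusted p under 0.05, where 1.39% of all features did. The median difference was -0.442 points, but leaving out ESC replicate 1 turned it to 3.76 points and leaving out replicate 2 lowered it to -4.99 points, and 4 rows were called without pESC replicate 1. The groups did not overlap in 42 rows with pESCs higher and 60 with pESCs lower, shares of 4.2% and 6% beside 8.94% and 6.74% of all features.

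For pESC-PGCLCs against ESC-PGCLCs 0 rows were called by limma, with 0.0948% of all features called, 0.0445% higher and 0.0503% lower, and the smallest adjusted p was 0.0575. The mean was lower in pESC-PGCLCs in 849 of 1000 rows (84.9%), where it was lower in 71.4% of all features and 83.3% of all repeats, with a median difference of -3.93 points (-3.59 points over all repeats). In 605 rows both pESC-PGCLC libraries lay below both ESC-PGCLC libraries and in 40 above, where 42.2% and 9.18% of all features did so. At an unadjusted p under 0.05 there were 287 rows, where 19.4% of all features passed. On untransformed levels 15 rows were called, 1 higher and 14 lower, with an offset of 0.1 in the log2 odds 10 rows, 0 higher and 10 lower, and without ESC-PGCLC replicate 1 there were 6.

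On induction of PGCLCs most called ERV1 rows rose, and most of the rises were in LTR rows. In ESC-PGCLCs against ESCs 182 rows were called, 172 higher and 10 lower, where 14.6% of all features were called, 13.7% higher and 0.899% lower, and 15.0% of all repeats. In pESC-PGCLCs against pESCs 127 rows were called, 120 higher and 7 lower, where 9.66% of all features were called, 8.91% higher and 0.746% lower, and 9.79% of all repeats. LTR rows made up 121 of the 172 rises and 78 of the 120. Without the MURVY rows the counts were 175 and 124 of 959. The difference between the 2 inductions, tested as an interaction, gave 0 called rows with limma, where 0.0365% of all features were called (0.0183% higher and 0.0183% lower). There were 32 rows at an unadjusted p under 0.05, where 2.96% of all features passed, and 5 called rows without ESC-PGCLC replicate 1.

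The first of these counts moved with the libraries left out. Leaving out ESC replicate 1 gave 347 called rows, 340 higher and 7 lower, and a median difference of 9.33 points. Leaving out ESC replicate 2 gave 181 rows, 141 higher and 40 lower, and a median difference of -0.575 points, against 4.45 points with both. Leaving out ESC-PGCLC replicate 1 or 2 gave 110 and 98 rows. In the pESC origin the median difference was 1.20 points, and it turned to -0.0357 points without pESC replicate 2. The count there was 75 without pESC replicate 1, 61 without pESC-PGCLC replicate 1 and 59 without pESC-PGCLC replicate 2.

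Rows called higher on induction had low median levels in stem cells. The 172 rows of the ESC origin had a median of 14.7% in ESCs and 47.5% in ESC-PGCLCs, and the 120 of the pESC origin 12% in pESCs and 40.9% after induction. A row near 0% can only rise, so these starting levels are partly set by the call itself. The 2 inductions share no library, but they were tested in the same fit and share its estimate of each row's spread between replicates. Their lists of called rows are therefore not independent of each other. In both lists 114 rows rose, which is 66.3% of the first list and 95% of the second. The matching overlap over all features was not computed. Of the 10 and 7 rows that fell, 6 were shared, and 0 rows were called in opposite directions.

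The called rises by name group are given beside the 13.7% (ESC origin) and 8.91% (pESC origin) of all features called higher, and differences between groups were not tested. Among them, 44 of 201 rows without an assigned stem (MLTR, MURVY, RodERV21 and MERV1 names) rose in the ESC origin and 29 in the pESC origin (21.9% and 14.4%). Of 77 other RLTR rows, 28 and 15 rose (36.4% and 19.5%), among them 10 and 8 of the 18 RLTR41 rows. RLTR14 names had 14 and 9 rises of 45 (31.1% and 20%). VL30 names had 18 and 14 of 114 (15.8% and 12.3%) and RLTR1 names 18 and 13 of 157 (11.5% and 8.28%), near the shares of all features. GLN had 2 rises and 1 fall of 75 in the ESC origin and 1 rise in the pESC origin, and MuLV had 3 rises and 1 fall, and 4 rises and 1 fall, of 48. Within VL30, 12 and 9 of the 44 MMVL30-int rows rose, and 3 and 3 of the 59 RLTR6-int rows.

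**Figure D4:**
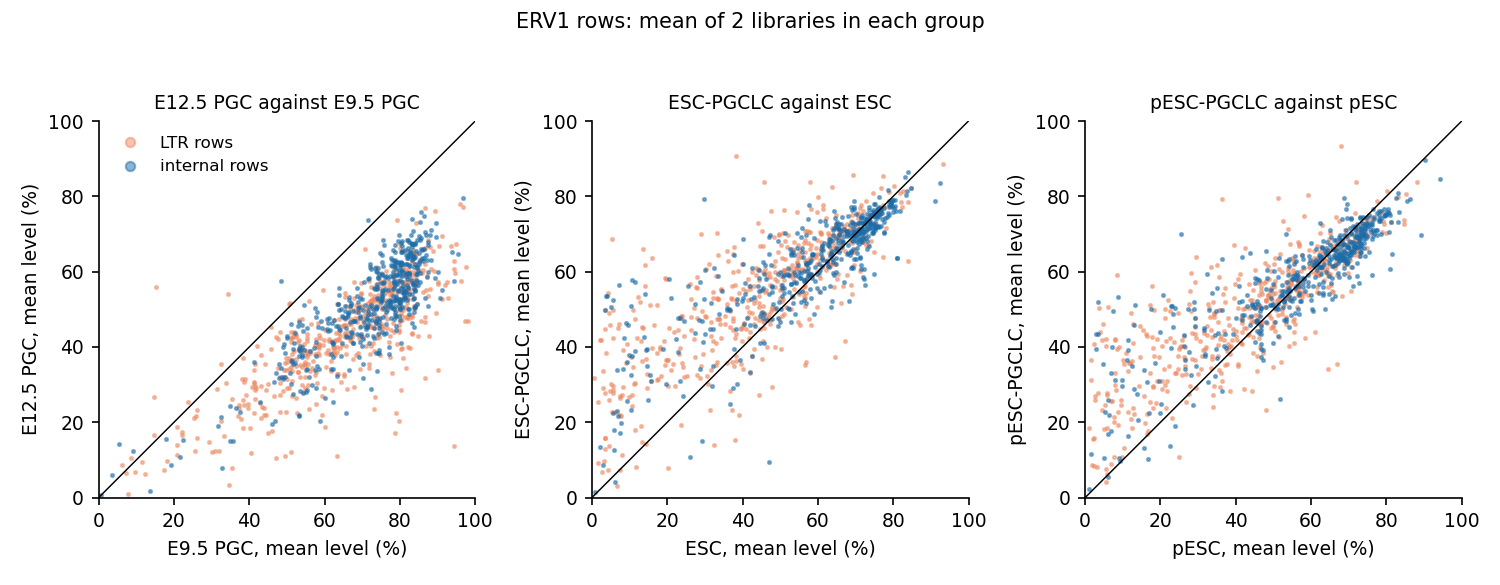
Mean methylation level (%) of 2 libraries for each of the 1000 ERV1 rows, LTR and internal rows coloured apart, in E12.5 against E9.5 PGCs (left), ESC-PGCLCs against ESCs (middle) and pESC-PGCLCs against pESCs (right), with the line of equal levels. In the left panel nearly all rows lie below the line, 984 of 1000 by mean where 98.2% of all repeats do so, and in the other panels the rows with low stem cell levels lie above the line while the dense group of highly methylated internal rows lies along it.

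The largest rise in both origins was the MER90 row at 1 to 277, an LTR. In the ESC origin it read 6.46% and 4.33% before and 68.7% and 68.9% after, a log2 odds difference of 5.04 (SE 0.242, adjusted p = 7.45e-05, limma). In the pESC origin it read 9.47% and 7.57% before and 59.0% and 59.1% after, a log2 odds difference of 3.81 (adjusted p = 0.000192, limma). E9.5 PGCs had 82.4% and 81.2% and E12.5 PGCs 52.3% and 54.4%. The MLTR73 row at 219 to 339 also rose in both origins, from 20.9% and 6.25% to 69.3% and 62.5% and from 7.41% and 0% to 56.9% and 43.9%. The internal row RLTR6-int at 5041 to 5824 read between 2.93% and 4.14% in the 4 stem cell libraries and between 51.2% and 55.6% in the 4 PGCLC libraries.

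Of the rows that fell on induction, MLTR14 at 7 to 505 had the largest fall in both origins. It went from 75.6% and 53.3% to 40.8% and 33.7% in the ESC origin, with adjusted p = 0.0480 (limma), and from 71.5% and 62.5% to 34.4% and 36.5% in the pESC origin, with adjusted p = 0.0391 (limma). MER67C at 495 to 687 read between 63.3% and 69.5% in the stem cell libraries and 32.9% to 43.1% in the PGCLC libraries. PGCs had 26.3% and 15.3% at E9.5, then 11.7% and 16.1% at E12.5. All germ cell libraries of this row lay below all stem cell libraries. The MURVY-int row at 5022 to 6027 read 79.5% and 82.6% in pESCs and 59.3% and 62.4% in pESC-PGCLCs, and it was not called in the pESC origin without pESC-PGCLC replicate 1.

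Counts on the deposited levels include the shift of the whole library. On induction the median log2 odds over all features rose by 1.17 in the ESC origin and by 0.92 in the pESC origin. Each library was then centred on the median of its features, in log2 odds for the test and in percentage level for the 10-point limit. Median levels over all features were 13.2% and 11.2% in ESCs and 25.4% and 24.0% in ESC-PGCLCs. A row of unchanged deposited level therefore counts as a fall after centring. In the ESC origin 480 rows were then called, 67 higher and 413 lower. Of all features 52.1% were called, 5.2% higher and 46.9% lower. In the pESC origin 455 rows were called, 58 higher and 397 lower, where 33.3% of all features were called, 4.34% higher and 28.9% lower. Subtracting 1 value from a whole library shifts ERV1 rows and other features alike, so most calls of both turned to lower. Between the PGC stages centring gave 278 calls, 26 higher and 252 lower, where 46.3% of all features were called, but 33.7% higher and 12.6% lower, the shift of the median being -1.12. Against E9.5 PGCs it gave 119 calls for ESC-PGCLCs, 38 higher and 81 lower, where 21.6% of all features were called, 17.1% higher and 4.44% lower, and 151 for pESC-PGCLCs, 27 higher and 124 lower, where 35.7% of all features were called, 27.2% higher and 8.46% lower. Against E12.5 PGCs it gave 147 calls for ESC-PGCLCs, 127 higher and 20 lower, where 5.97% of all features were called, 4.6% higher and 1.37% lower, and 22 for pESC-PGCLCs, 16 higher and 6 lower, where 0.828% of all features were called, 0.555% higher and 0.273% lower. The medians had differed by -0.66 and -0.80 from E9.5 PGCs and by 0.45 and 0.31 from E12.5 PGCs. All other counts in the text are on the deposited levels.

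A small set of rows was almost unmethylated in stem cells and highly methylated in E9.5 PGCs, by the limits used to pick it. The share of such rows among all repeats is not given here. There were 7 rows under 10% in all 4 stem cell libraries and at 75% or more in both E9.5 PGC libraries, chosen after their values were seen and described without a test. They were RMER5 at 78 to 493, RLTR6-int at 6 to 261 and at 5041 to 5824, MER90 at 1 to 277, MER31-int at 3591 to 3782, RLTR14-int at 4487 to 4832 and RLTR6_Mm at 1 to 586. Over these rows the median was 4.95% in ESCs and 5.60% in pESCs, and PGCs went from 80.9% at the earlier to 46.5% at the later stage. Over the same rows ESC-PGCLCs had a median of 53.0% and pESC-PGCLCs 48.5%. RMER5 at 78 to 493 had the widest range of these, with 3.44% and 5.21% in ESCs, 5.08% and 6.83% in pESCs, 85.7% and 83.9% at E9.5, then 46.0% and 39.5% at E12.5. After induction it had 53.9% and 54.6% from ESCs and 50.2% and 51.1% from pESCs.

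RLTR6-int at 6 to 261 and at 5041 to 5824 belong to a subfamily with medians of 68.9% to 75.4% in the stem cell libraries. RLTR6_Mm at 1 to 586 shares the name stem but belongs to an LTR subfamily of 5 rows, with stem cell medians of 47.5% to 59.9%. RLTR6-int at 6 to 261 read 5.63% and 5.51% in ESCs, 79.3% and 82.9% at E9.5 and 52.3% and 54.4% in later PGCs. In RLTR6-int 22 of the 59 rows were over 60% in every library. Rows of a subfamily thus did not share 1 level in stem cells.

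There were 12 rows under 20% in every library, in 10 subfamilies, a limit that itself bounds how far they can move. The lowest was MuRRS-int at 1021 to 1109, which read between 0% and 3.23% in the 12 libraries. The widest range of group means among the 12 was that of RLTR14_RN at 6 to 187, which read 0.311% and 2.93% in ESCs and 18.9% and 15.5% in E9.5 PGCs. RLTR41 at 1 to 414 read between 0% and 11.8%, MMVL30-int at 716 to 2603 between 3.10% and 8.96%, MER92C at 244 to 590 between 0% and 14.8%, and RLTR41 at 255 to 446 between 1.59% and 13.4%. In E9.5 PGCs, where the median ERV1 row stood at 73.1%, these 12 rows had a median of 10.2%.

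**Figure D5:**
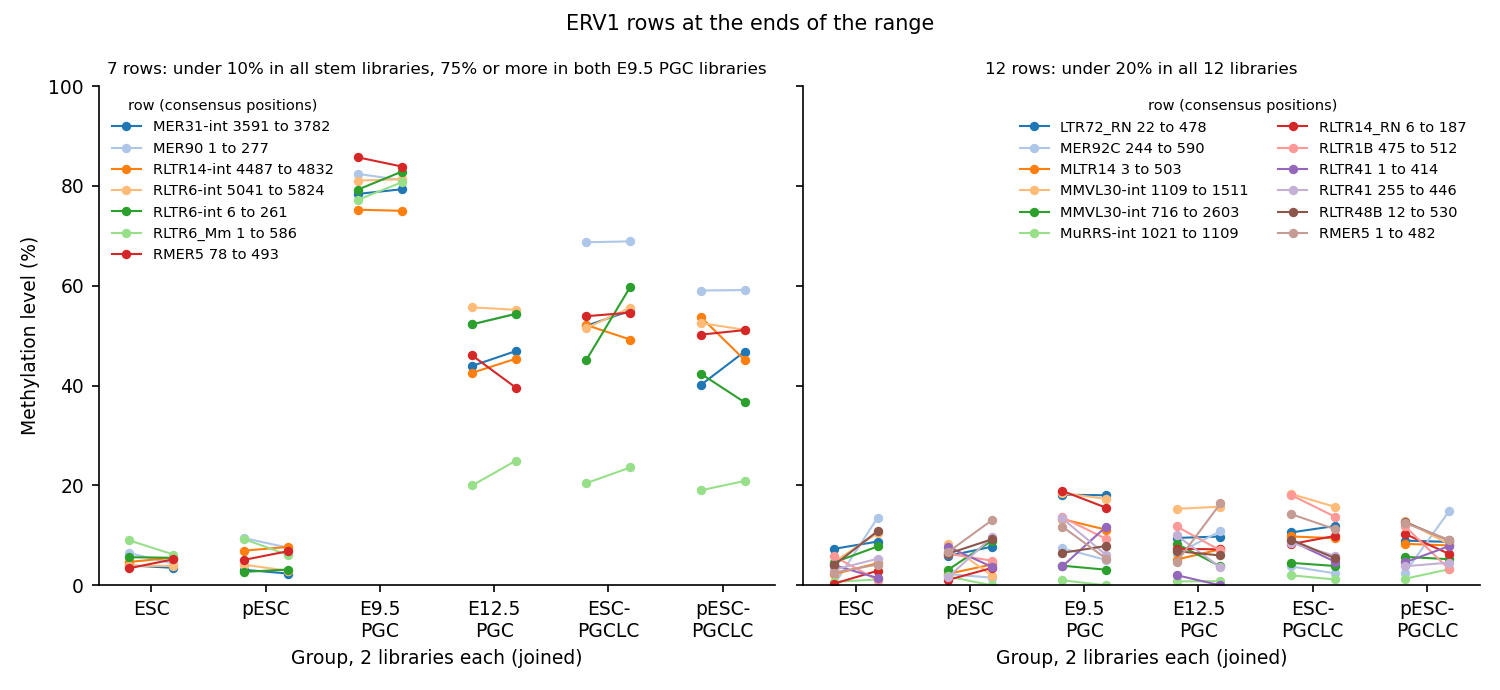
Methylation level (%) in the 12 libraries, the 2 libraries of a group joined, for the 7 rows under 10% in all stem cell libraries and at 75% or more in both E9.5 PGC libraries (left), and for the 12 rows under 20% in every library (right). On the left the median over the rows is 4.95% in ESCs, 80.9% in E9.5 PGCs and 46.5% in E12.5 PGCs. On the right it lies between 4.11% in ESCs and 10.2% in E9.5 PGCs.

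At the other end 112 rows stayed over 60% in every library, and 89 of them were internal sequences. RLTR6-int gave 22 of them, MMERGLN-int 17, RLTR1B 11, MuRRS-int 10 and MURVY-int 9. Their median was 83.0% at the earlier and 65.4% at the later PGC stage. Of the 5 rows with the highest mean over the 12 libraries, all but RMER5 at 167 to 516 were among these, and the highest was MuRRS4-int at 1 to 114, which read 91.7% and 90.4% in ESCs and went from 97.5% and 95.8% to 81.3% and 78.1% between the PGC stages. MMVL30-int at 845 to 955 read 93.8% and 91.3% in ESCs, 95.2% and 95.5% in the earlier PGCs, and 65.9% and 63.7% in the later ones. RLTR6B_Mm at 1 to 362, a VL30 LTR by name stem, went from 89.6% and 89.1% to 75.2% and 77.1%. RLTR1B-int at 1 to 4147 went from 86.4% and 87.0% to 67.9% and 73.0%, and RMER5 at 167 to 516 from 96.0% and 100% to 46.2% and 47.4%.

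Within a subfamily the level differed along the consensus. For MMVL30-int, rows whose interval was centred in the first 1000 positions (18 rows) had a mean of library medians of 62.0% in ESCs and 74.0% in E9.5 PGCs. The 5 rows centred from 2001 to 3000 had 14.4% in ESCs, with 58.9% and 32.0% in the earlier and later PGCs. For MERV1_I-int the pattern ran the other way, with 21.9% in ESCs for the 7 rows centred in the first 1000 positions and 64.5% for the 12 rows from 1001 to 2000, while both stood at 71.2% and 75.4% in E9.5 PGCs. For RLTR6-int the bins with at least 4 rows had 63.3% to 73.8% in ESCs, which as medians do not show single low rows. Among these bins were those of the rows at 6 to 261 (5.63% and 5.51% in ESCs) and 5041 to 5824 (3.88% and 3.91%). These bins hold few rows and are given as a description.

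Of 23 MuLV rows with intervals of at least 2500 positions, 9 were over 60% in every library. RLTR4_MM-int at 1 to 7601 read 78.2% and 71.0% in ESCs, 79.8% and 78.5% at E9.5, then 56.3% and 57.1% at E12.5, and between 68.7% and 70.7% in PGCLCs. MuLV-int at 1 to 7606 read 81.5% and 76.2% in ESCs, 83.5% and 83.5% at E9.5, then 63.7% and 64.1% at E12.5, and between 73.1% and 75.9% in PGCLCs. RLTR4_MM-int at 1 to 7584 was low in stem cells, with 9.70% and 11.2% in ESCs and 6.75% and 7.32% in pESCs, against 51.0% and 52.5% in the earlier and 37.7% and 33.5% in the later PGCs. RLTR4_MM-int at 1 to 5752 went the other way, with 78.7% to 83.4% in the stem cell libraries, 53.5% and 55.3% in the earlier PGCs, 29.0% and 26.3% in the later ones, and 61.9% to 65.4% in PGCLCs. In that row the PGCLC libraries lay above both PGC stages. These rows were singled out after their values were seen, apart from the last, which had the largest rise of pESC-PGCLCs over E12.5 PGCs.

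Beside the other LTR retroviruses, ERV1 rows stood close to ERVK, the class that includes IAP elements, and above ERVL and MaLR elements in every library. In E9.5 PGC replicate 1 the medians were 73.2% for ERV1, 73.8% for 4043 ERVK rows, 63.7% for 862 ERVL rows and 65.7% for 2547 MaLR rows. In E12.5 PGC replicate 1 they were 48.0%, 50.0%, 39.8% and 41.7%, and in ESC replicate 1 they were 60.6%, 59.6%, 45.7% and 46.9%. The share of the E9.5 level kept at E12.5 was 68.9% for ERV1, 70.7% for ERVK, 64.9% for ERVL and 65.3% for MaLR. The differences between classes were not tested.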

How the data were processed

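For each of the 12 libraries the authors deposited 1 level per feature as a fraction of 0 to 1, methylated CG over all CG calls. Per the labels and the study's methods they used Bismark 0.16.3 with Bowtie2 on mm10, kept unique best alignments, regarded identical reads at 1 place as duplicates (whether they were removed is not given in the sources used here) and corrected for non-conversion. Unique alignment drops reads that fit several copies of a repeat equally well, so young elements can be under-represented. Counts are not analysed here, the coverage minimum is not given in the sources used here, and no interval could be computed. Groups and replicate numbers came from the titles. Levels were compared with limma 3.58.1 (lmFit, eBayes, R 4.3.3) on log2((level + 0.01) / (1 - level + 0.01)) over all features with a level in each library of the fit (148012 for stem cells, 137202 for PGCs and PGCLCs, 136848 for induction), with Benjamini-Hochberg adjustment over all of them. Summaries used Python 3.11.15 and pandas 2.3.3, plots matplotlib 3.10.9. In simulated levels of 20000 features, 200 shifted by 2 on the log2 odds scale, the stem cell design recovered 0, the PGC design 174 and the induction design 127, and with a shift of 4 they recovered 129, 197 and 189. A count of 0 for pESCs against ESCs therefore says little about changes of the smaller size. Named rows are the 3 largest called rises and falls per comparison, the 5 highest and lowest levels, the 5 widest ranges, the largest replicate gaps, the extremes of relative loss, and the gammaretroviral name groups. Rows and lists were chosen with earlier results of these data known.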

Additional observations from a re-analysis of the deposited data

Results flagged for a closer look

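The Y-linked features were outside the comparisons above. Of the 13 features of Kdm5d, Uty, Ddx3y, Eif2s3y, Usp9y and Uba1y, the PGC and PGCLC libraries listed between 10 (ESC-PGCLC replicate 2 and both pESC-PGCLC libraries) and 13, and the ESC and pESC libraries listed 0. The levels of these features did not all move alike between the PGC stages. The Uty intron had 88.9% and 88.8% in E9.5 PGCs and 74.4% and 70.7% in E12.5 PGCs. The Ddx3y promoter had 2.73% and 2.77%, then 6.06% and 0.505%. The Uba1y intron had 37.8% and 48.8%, then 40.9% and 21.1%, so its stages overlapped. Rows listed in the 8 PGC and PGCLC libraries alone made up 2.70% of ERV1 rows and 2.62% of all repeat rows, and 1 of them was a MURVY row. The part of this difference in the ERV1 results was not tested beyond leaving out the MURVY rows.

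The largest replicate gap in ESCs, 75 points, was shared by RLTR14 at 1 to 376 and MuRRS-int at 1108 to 3284. The latter read 75% and 0% there and 20% and 83.3% in pESCs, while the 8 germ cell libraries ran from 18.7% to 31.8%. The other largest gaps were 44.4 points in E9.5 PGCs (RMER5 at 3 to 214), 54.8 in E12.5 PGCs (MLTR14 at 2 to 208), 54.1 in ESC-PGCLCs (MLTR14 at 386 to 516) and 47.3 in pESC-PGCLCs (RMER5 at 12 to 472).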

How the results depend on the processing

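Of 114 alternative counts of called rows, 90 stayed within 1.5 times the value in the report. Centring each library on its median gave 278 calls for E12.5 against E9.5 PGCs, 119 and 151 for ESC-PGCLCs and pESC-PGCLCs against E9.5 PGCs, and 147 and 22 against E12.5 PGCs, and with 480 and 455 calls it turned the majority direction of the 2 inductions. With all 12 libraries in 1 fit, ESC-PGCLCs and pESC-PGCLCs against E12.5 PGCs gave 276 and 13. For pESC-PGCLCs against ESC-PGCLCs an offset of 0.1 gave 10 and untransformed levels 15. Leaving out 1 library gave 0 to 4 calls for pESCs against ESCs, 831 to 845 for E12.5 against E9.5 PGCs, 391 to 421 and 602 to 644 for the PGCLCs against E9.5 PGCs, 403 to 433 and 0 to 45 against E12.5 PGCs, 0 to 6 between PGCLCs, 98 to 347 and 59 to 87 for induction, and 0 to 5 for the interaction. The median difference then ran from -4.99 to 3.76 points for pESCs against ESCs, -21.9 to -20.8 for the PGC stages, -10.4 to -10.1 and -14.3 to -13.7 against E9.5 PGCs, 10.8 to 11.3 and 6.58 to 7.35 against E12.5 PGCs, -4.20 to -3.53 between PGCLCs, -0.575 to 9.33 and -0.0357 to 2.20 for induction, and -7.96 to 0.966 for the interaction. Taking the mean over rows gave -21.6, -10.8, -14.6 and 3.85 points for the PGC stages, ESC-PGCLCs and pESC-PGCLCs against E9.5 PGCs, and induction from pESCs, and taking all ERV1 rows with a level in the libraries compared gave -21.0, -9.72 and -13.7 for the first 3 of these. The cause of these shifts was not tested.

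Replicates share only a number in their titles. The correlation of same-numbered deviations over all features was 0.432 for ESCs and pESCs and between -0.0573 and 0.139 for the other pairs of groups. Counts fitted with a replicate block were 0 for pESCs against ESCs, 866 for the PGC stages, 455 and 686 against E9.5 PGCs, 497 and 146 against E12.5 PGCs, 0 between PGCLCs, 185 and 130 for induction and 0 for the interaction, and no count moved by more than 1.5 times. Of 390 alternatives for 39 named results, 318 kept their call, 72 lost it and 0 reversed. The read depth of each row is not given. Levels such as the 0% and 75% in ESCs of RLTR14 at 1 to 376 and MuRRS-int at 1108 to 3284 can come from few CG calls. This was not tested.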
